A study of Homo sapiens with 4 samples.

Results

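The 10 keratin genes *KRT5*, *KRT7*, *KRT8*, *KRT14*, *KRT15*, *KRT17*, *KRT18*, *KRT19*, *KRT80* and *KRT81* were followed in T47D cells, a human breast cancer cell line of luminal type that expresses the progesterone receptor (PR). They were chosen by gene symbol from the 23287 symbols in the RNA-seq files, and all 10 were found. R5020 is a synthetic progestin. RNA came from cells kept for 24 h in charcoal-stripped serum, which is poor in steroids, with 10 nM R5020 or the vehicle ethanol (EtOH) given for 3 h, and chromatin for PR ChIP-seq came from cells kept for 3 days in such serum and given 10 nM R5020 for 1 h. There was 1 library per condition and no PR ChIP-seq library from EtOH-treated cells, so the differences were not checked against replicates and no p-values are given.

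Keratins are the intermediate filament proteins of epithelial cells. Each filament is built from pairs of a type I keratin, whose genes form a cluster on chromosome 17, and a type II keratin, whose genes lie together on chromosome 12 along with the type I gene *KRT18*. In the mammary gland *KRT7*, *KRT8*, *KRT18* and *KRT19* mark the luminal cells that line the ducts, while *KRT5*, *KRT14* and *KRT17* mark the basal layer, and *KRT15* is a keratin of basal epithelial cells. *KRT80* is a type II keratin found in many epithelia, and *KRT81* is a type II hair keratin. PR acts by binding DNA as a dimer, at an element made of inverted half-sites, and progestins are known to increase the number of KRT5-positive cells in cultures of luminal breast cancer lines.

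On hg19 the chromosome 12 genes are *KRT80* (chr12:52562780-52585784, reverse strand), *KRT7* (chr12:52626954-52642709, forward), *KRT81* (chr12:52679697-52685299, reverse), *KRT5* (chr12:52908359-52914243, reverse), *KRT8* (chr12:53290971-53343650, reverse) and *KRT18* (chr12:53342655-53346685, forward). Those on chromosome 17, all on the reverse strand, are *KRT15* (chr17:39669997-39675270), *KRT19* (chr17:39679869-39684641), *KRT14* (chr17:39738531-39743147) and *KRT17* (chr17:39775692-39780882).

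The PR binding sites of these loci are shown first by their sequence. Altogether 26 of the 11181 deposited PR binding sites lay within 50 kb of at least 1 of the 10 genes, measured from the nearest edge of the site to the extent of the transcripts of the gene. The core of the PR element, ACANNNTGT, which reads the same on both strands, was found in 4 of these 26 sites. All coordinates are on hg19, with the bases read from GRCh37, the same assembly. The sequences are given on the forward strand, with the ACANNNTGT match in capitals and 60 bases on each side, because these are the keratin sites in which the core element was found.

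*KRT7* gene body, chr12:52637009-52637137: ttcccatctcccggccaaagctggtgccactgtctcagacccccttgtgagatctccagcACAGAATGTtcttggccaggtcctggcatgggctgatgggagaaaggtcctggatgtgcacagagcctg
*KRT5* 3' side, chr12:52874457-52874585: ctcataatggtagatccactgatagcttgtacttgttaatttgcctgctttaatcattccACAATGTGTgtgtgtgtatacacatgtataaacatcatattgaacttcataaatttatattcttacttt
*KRT17* 3' side, higher score, chr17:39773446-39773574: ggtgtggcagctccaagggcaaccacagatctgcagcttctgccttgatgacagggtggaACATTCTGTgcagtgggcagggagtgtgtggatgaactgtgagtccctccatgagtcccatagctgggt
*KRT17* 3' side, lower score, chr17:39774672-39774800: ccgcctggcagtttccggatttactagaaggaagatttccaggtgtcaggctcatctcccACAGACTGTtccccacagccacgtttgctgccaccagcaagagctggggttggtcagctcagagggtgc

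In each of the 4 sites the match lay close to the middle, with its central base between 15 and 31 bp from the midpoint of the site. Within the central 300 bp, 4 of 26 keratin sites (15.4%) held ACANNNTGT, against 8.20% of the 11178 sites on the assembled chromosomes and 7.68% of windows of the same length 5 kb away. A longer form of the element, which also asks for a G 2 bases before the core and a C 2 bases after it, was present in the *KRT7* site and in the *KRT17* site of higher score, 2 of 26 (7.69%), against 1.89% of all sites and 0.49% of the windows 5 kb away. The half-site TGTTCT, searched on both strands, was in 5 of 26 central windows (19.2%), 17.7% of all sites and 19.2% of the distant windows. A match describes these letters only, and with 26 sites the shares are coarse.

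The site below held no ACANNNTGT. It is shown by its central 150 bases because it had the highest score of the 26.

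*KRT80* 3' side, highest score, chr12:52546241-52546390: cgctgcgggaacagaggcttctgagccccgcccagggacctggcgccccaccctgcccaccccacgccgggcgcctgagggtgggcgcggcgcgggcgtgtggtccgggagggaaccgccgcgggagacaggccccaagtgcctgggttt

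Expression was taken as FPKM, fragments scaled to transcript length and library size, summed over the transcripts of a gene. For *KRT7* and *KRT19* in both libraries it lay above the interval that Cufflinks gives with it, and for *KRT15* in both libraries and *KRT8* in R5020 below it, so levels and ratios between these genes depend on which of the 2 is read. The coverage deposited beside it corresponded to 35.2 M reads of 50 nt in EtOH and 36.2 M in R5020 over all transcripts. These are equivalents taken from the coverage and not read counts. The paper reports larger read totals, with EtOH the deeper library. The luminal keratins were expressed far above the basal ones in both conditions. Of the 10 genes, *KRT5*, *KRT14*, *KRT17* and *KRT81* stayed below an FPKM of 1 in both libraries, 4 genes had an FPKM above 1 in both, and for *KRT8* and *KRT18* no value was obtained in EtOH.

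*KRT19*, a small type I keratin without the usual tail, had an FPKM of 608 with EtOH and 477 with R5020, and from the midpoints of its intervals 404 and 318. *KRT8* and *KRT18*, the type II and type I partners that form the main filament of simple epithelia, had FPKM values of 285 and 174 in R5020, ranks 52 and 100 among all genes of that library, and 355 and 176 from the midpoints. *KRT19* stood above *KRT8* in R5020 by the FPKM and below it by the midpoints.

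The estimation of *KRT8* and *KRT18* failed in EtOH. All 4 transcripts of *KRT8* and both transcripts of *KRT18* carry the status FAIL there and are listed at 0, and these are 6 of the 9 transcripts that failed in that library. A 0 of this kind is not a level, so neither gene has a fold change here. In R5020 the whole FPKM of *KRT8* was assigned to NM_002273 and that of *KRT18* to NM_000224, and the others were listed at 0. The other 3 *KRT8* transcripts start further upstream, and 2 of them extend over the start of *KRT18*, which is read from the opposite strand.

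*KRT7*, a type II keratin of ductal epithelia, was at 32.9 in EtOH and 26.9 in R5020. *KRT80* was at 10.1 and 5.81, and *KRT15* at 3.49 and 2.36. All 4 genes above an FPKM of 1 in both libraries were lower in R5020. Among all genes that reached an FPKM of 1 in either library, 49.1% were lower.

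*KRT5*, the type II keratin of basal cells, was at 0.0102 in EtOH and 0.232 in R5020. *KRT14*, its type I partner, was at 0.00822 and 0.0170, and *KRT17*, a type I keratin of basal and stressed epithelia, at 0.0452 and 0.0476. *KRT81* was at 0.0884 and 0.0262. Of the 4 genes below an FPKM of 1, 3 were higher and 1 was lower in R5020, at levels where a few reads decide the value.

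**Figure D1:**
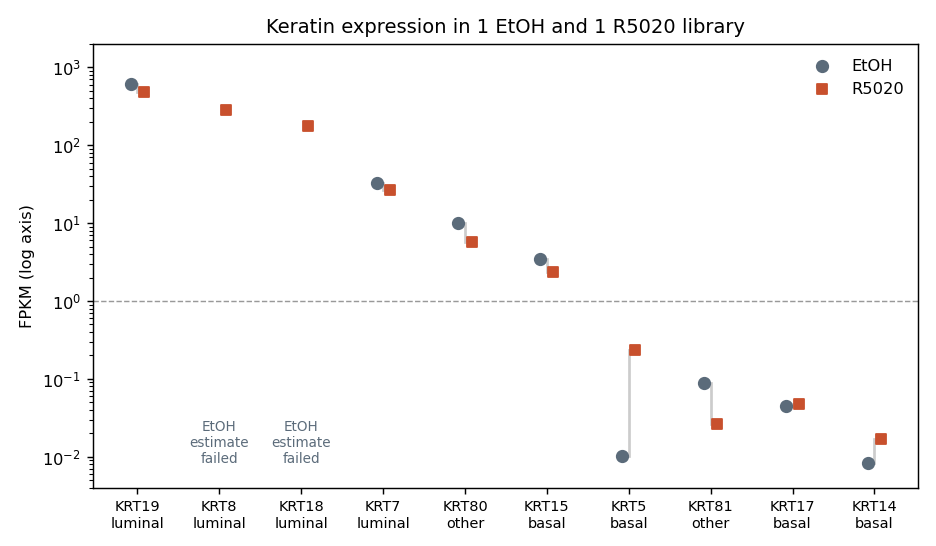
FPKM of each keratin on a log axis in the EtOH library (grey circles) and the R5020 library (red squares), 1 library each, with the mammary class under each name and a dashed line at an FPKM of 1. *KRT19* stands at 608 and 477, the 4 genes to the right of *KRT15* lie below 1 in both libraries, and *KRT8* and *KRT18* have no EtOH value because their estimation failed.

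The sum of *KRT7* and *KRT19*, the luminal keratins with a value in both libraries, was 641 in EtOH and 504 in R5020, a log2 ratio of −0.35. *KRT19* made up 94.9% of this sum in EtOH and 94.6% in R5020. The sum of the basal keratins *KRT5*, *KRT14*, *KRT15* and *KRT17* was 3.56 and 2.65, a log2 ratio of −0.42. *KRT15* made up 98.2% of it in EtOH and 88.8% in R5020, so the basal sum mostly follows this gene. Without *KRT15* the basal sum went from 0.0635 to 0.296, almost all of it *KRT5*.

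*KRT7* and *KRT19* together exceeded the basal sum 180-fold in EtOH and 190-fold in R5020, and 85.7-fold and 92.4-fold by the interval midpoints. With *KRT8* and *KRT18* included, which is possible in R5020 only, the luminal sum was 963 and exceeded the basal sum 363-fold, or 236-fold by the midpoints. In R5020 the type I members summed to 653 and the type II members to 318, a ratio of 2.05 that was 1.30 by the midpoints, and *KRT8* stood 1.64-fold above *KRT18*, or 2.02-fold by the midpoints. Among the genes with a value in both libraries, the type I sum went from 612 to 479 and the type II sum from 43.1 to 33.01, log2 ratios of −0.35 and −0.38.

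To compare the conditions, 1 was added to each FPKM and the log2 of the R5020 to EtOH ratio was taken, a scale that understates the change of low genes. The threshold was 1.5-fold, applied to the 11010 genes that reached an FPKM of 1 in either library, called retained here. Among these, 4.10% were lower by 1.5-fold or more and 7.65% were higher, and the median log2 fold change was 0.01. Of the 4 retained keratins, 1 was at least 1.5-fold lower, *KRT80*, and none was at least 1.5-fold higher. Their median log2 fold change was −0.39.

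*KRT80* changed by −0.70 on the log2 scale, and 2.82% of the retained genes had a lower value. The fall was seen in both of its transcripts, which share a start site. NM_182507 went from 5.21 in EtOH to 3.42 in R5020 and NM_001081492 from 4.88 to 2.39, and in neither case did the intervals given by Cufflinks overlap (4.77 to 5.65 against 3.07 to 3.77, and 4.46 to 5.31 against 2.09 to 2.68). NM_182507 was 51.6% of the gene in EtOH and 58.8% in R5020. With this transcript alone the log2 fold change was −0.49, below the threshold. The Cufflinks interval covers the estimate within a library and not the spread between cultures.

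*KRT15* changed by −0.42, *KRT19* by −0.35 and *KRT7* by −0.28, none of them past 1.5-fold. Lower values were found in 8.04%, 11.04% and 15.3% of the retained genes, respectively. Of the 166 genes with an FPKM of 100 or more in both libraries, whose median was −0.07, 13.3% lay below *KRT19*. From the midpoints of the intervals, an alternative chosen after the data were seen, the log2 fold changes were −0.45, −0.35 and −0.28.

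*KRT5* had a log2 fold change of 0.29 with a pseudocount of 1 and of 1.59 with a pseudocount of 0.1. Its coverage was 0.993 reads per base in R5020 and 0.0255 in EtOH, which corresponds to 45.7 and 1.17 reads of 50 nt over the transcript. The interval of its FPKM reached from 0.137 to 0.321 in R5020 and from 0 to 0.0265 in EtOH. The EtOH value rests on about 1 read, so the size of the ratio is not determined, and even in R5020 the level was 0.0486% of that of *KRT19* (0.0720% by the midpoints).

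*KRT81* corresponded to 15.9 reads in EtOH and 4.10 in R5020, *KRT17* to 5.60 and 5.27, and *KRT14* to 0.77 and 1.34. Their log2 fold changes with a pseudocount of 1 were −0.08, 0.003 and 0.01. Reads with several positions in the genome had been discarded, which bears on keratins with close copies. *KRT16*, close in sequence to *KRT14* and *KRT17*, was listed at 0.0870 and 0.0900, and *KRT86*, close to *KRT81*, at 0.201 and 0.257, so the values of these genes are uncertain.

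**Figure D2:**
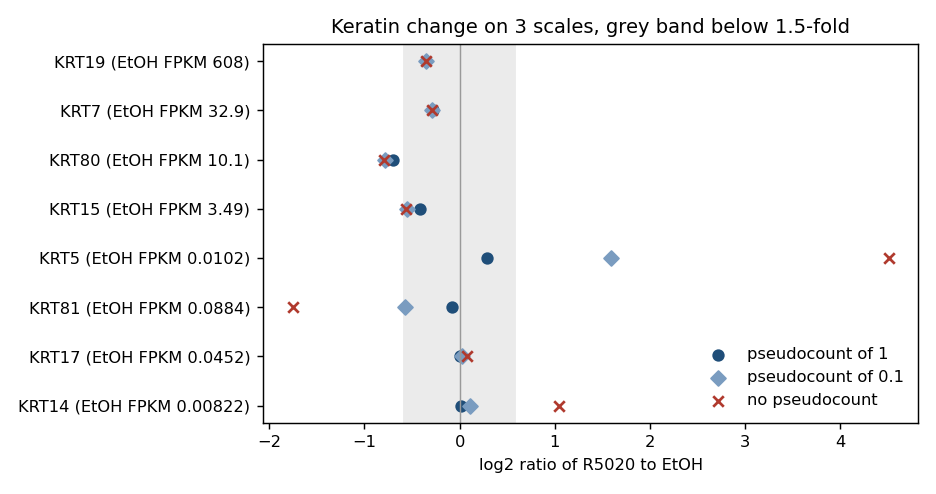
Log2 ratio of R5020 to EtOH for the 8 keratins with a value in both libraries, with a pseudocount of 1 (circles), with 0.1 (diamonds) and without a pseudocount (crosses), and a grey band for changes below 1.5-fold. The 4 genes above an FPKM of 1 stay between −0.28 and −0.80 on the 3 scales, while *KRT5* goes from 0.29 to 1.59 and *KRT81* from −0.08 to −0.58 with the smaller pseudocount.

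The other 44 type I and type II keratin genes in the files were mostly silent. Of these, 20 were listed at 0 in both libraries and 41 did not reach an FPKM of 1 in either. *KRT23*, a type I keratin of several epithelia, was at 24.1 in EtOH and 16.8 in R5020 (log2 fold change −0.49). *KRT10*, the type I keratin of the upper epidermis, was at 3.86 and 3.79 (−0.02), and *KRT4*, a type II keratin of moist stratified epithelia, at 1.94 and 2.64 (0.31). None of the 3 passed 1.5-fold. *KRT1*, the epidermal partner of *KRT10*, was listed at 0 in both libraries.

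Every one of the 10 keratin genes had a PR binding site within 50 kb. Among all 23287 genes in the files the share was 45.6%, among the 11010 retained genes 52.7%, and among the other 44 keratin genes 31 had such a site (70.5%). The genes lie in clusters and share sites, so that the 26 sites made 37 pairs of a site and a gene and 11 sites were within 50 kb of more than 1 of the 10 genes. The counts are therefore not independent. Within 10 kb, 8 of the 10 genes and 27.4% of all genes had a site, and *KRT14* and *KRT81* did not. Inside the gene itself 5 of the 10 genes and 17.9% of all genes had a site. The pairs next to the 50 kb limit were *KRT8* at 48.8 kb, counted, and *KRT15* at 50.8 kb, not counted.

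The score of a site is that of MACS, which grows as the p-value of the peak falls. The 26 sites had scores from 50.8 to 413, with a median of 66.8 against 74.5 for all sites, and 10 of them were at or above that overall median. By their midpoint 16 were outside any protein-coding gene of GENCODE release 44.

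*KRT80*, the keratin that fell past 1.5-fold, had the most sites, 9, and the strongest. The site of score 413 (chr12:52545945-52546686, rank 74 of 11181) lay 16.1 kb beyond the 3' end of *KRT80*, and a second of score 314 (chr12:52520124-52520735, rank 117) lay 42.04 kb beyond it. Both are in the stretch past the gene, and the next highest score among the 26 sites was 135. Of the 3 sites inside *KRT80*, those of score 99.1 and 65.3 were in introns, and that of score 64.5 covered the transcription start, with its midpoint 0.21 kb into the gene in a coding exon.

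*KRT15* also had a site beside its start. This site, of score 82.3 (chr17:39674849-39675235), lay wholly inside the gene with its midpoint 0.23 kb past the start in a coding exon. A weaker one of score 57.1 lay 2.11 kb upstream of this start, in an intron of *KRT15* by GENCODE release 44. The same pair lay 4.63 kb and 2.32 kb beyond the 3' end of *KRT19*, the next gene on chromosome 17, which had no other site within 50 kb. *KRT80* and *KRT15* were the only 2 of the 10 genes with the midpoint of a site within 1 kb of the start of their main transcript. No share over all genes is given for this distance, so the count is not read as high or low.

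Around *KRT8* and *KRT18*, the strongest site had a score of 111 (chr12:53345961-53346311, rank 1185). It lay inside *KRT18* with its midpoint 3.29 kb past the start, in the UTR, and 47.3 kb upstream of the main *KRT8* start. Inside *KRT8*, sites of score 56.7 and 55.6 lay in introns of the long transcripts, 7.28 kb and 32.7 kb upstream of the main start. *KRT7* had 1 site inside the gene, of score 58.6, with its midpoint 10.1 kb past the start in a non-coding exon, which is the one with the longer element shown above. This site was also the only one within 50 kb of *KRT81*, 42.3 kb beyond its 3' end.

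Of the basal keratins, *KRT17* had sites of score 50.8 and 135 at 0.684 kb and 1.86 kb beyond its 3' end, both with the core element shown above, and the latter was the third strongest of the 26. The same sites lay 30.1 kb and more upstream of *KRT14* and were its only ones, with *KRT16* closer to them, at 5.415 kb and 4.17 kb. *KRT5* had 4 sites. The nearest, of score 65.4, lay 3.68 kb upstream of the start by its midpoint, and the strongest, of score 96.8, lay 33.6 kb beyond the 3' end and held the core element. That strongest site was closer to *KRT6A*, at 6.16 kb, and *KRT6C*, at 6.71 kb, both listed at 0 in both libraries. The *KRT5* sites of score 57.65 and 67.1 were closer to *KRT71*, at 5.44 kb and 5.94 kb. *KRT17* thus had sites beside it although it was listed at an FPKM below 0.05 in both libraries. *KRT14*, also below 0.05 in both, had them only at 30.1 kb and more.

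**Figure D3:**
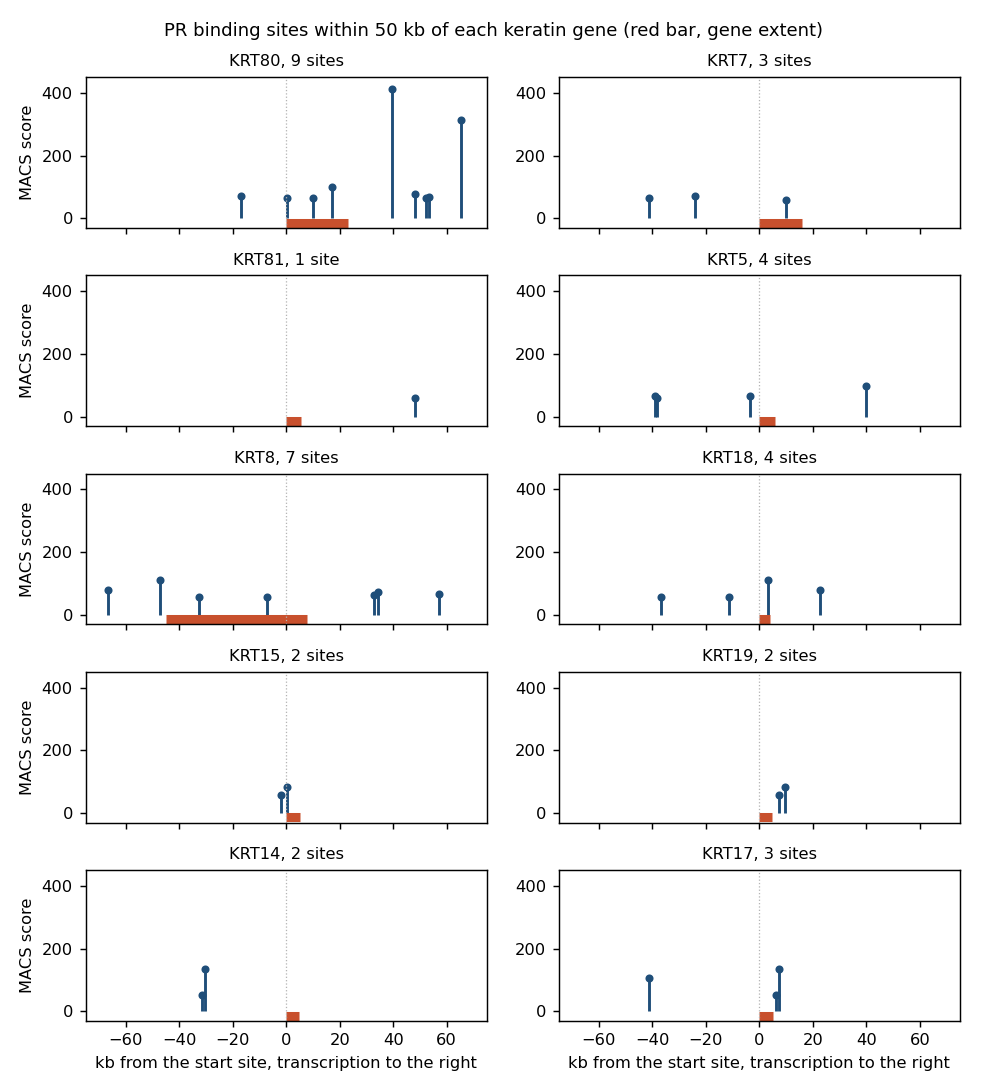
PR binding sites within 50 kb of each keratin gene, drawn at the distance of their midpoint from the start of the main transcript in kb, with the MACS score as the height and the gene extent as a red bar, transcription running to the right. *KRT80* has 9 sites with the scores of 413 and 314 past its 3' end, while the highest score beside any other gene is 135.

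Few other expressed genes lay near these sites. *C12orf44* was 48.8 kb from the *KRT80* site of score 314, with FPKM values of 11.7 and 12.8 (log2 fold change 0.12). *EIF4B*, a translation initiation factor gene, was 34.2 kb from a site of score 78.6 past *KRT18*, at 79.8 and 73.97 (−0.11). *EIF1*, another initiation factor gene, was 22.7 kb from the *KRT17* site of score 107, at 102 and 81.9 (−0.32). *KRT4* was 33.7 kb from the outermost *KRT8* site. None of these 4 passed 1.5-fold.

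Genes listed as anchors or partners of keratins were read against the 11.7% of retained genes that passed 1.5-fold in either direction. Of 21 genes of desmosomes, hemidesmosomes and plakins, 15 were retained, 1 was at least 1.5-fold higher and 1 lower, with a median of −0.09. *PPL*, encoding periplakin, which links keratins to desmosomes, rose past the threshold from 8.65 in EtOH to 15.6 in R5020 (0.78), and *DST*, encoding dystonin, a plakin of hemidesmosomes, fell past it from 14.8 to 8.97 (−0.67). The highest members were *JUP*, encoding plakoglobin, at 62.98 and 49.9 (−0.33), *DSP*, encoding desmoplakin, at 49.6 and 50.1 (0.01), and *PLEC*, encoding plectin, at 21.3 and 14.9 (−0.48).

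Of 15 genes listed as partners of keratin proteins, whose binding was not checked here, 13 were retained and 1 passed 1.5-fold. This was *DNAJB6*, a co-chaperone known to bind KRT18, at 16.2 in EtOH and 30.001 in R5020 (0.85). The highest were *HSPA8*, a constitutive chaperone, at 366 and 259 (−0.49), *YWHAZ*, a 14-3-3 protein gene, at 191 and 204 (0.09), and *YWHAB*, another of that family, at 93.7 and 88.96 (−0.07). Of 16 genes for other intermediate filaments, 5 were retained and none passed 1.5-fold, the highest being the lamin genes *LMNA* at 53.5 and 40.04 (−0.41), *LMNB1* at 29.5 and 31.2 (0.08) and *LMNB2* at 15.2 and 15.8 (0.05). *VIM*, the intermediate filament gene of mesenchymal cells, was at 0.360 and 0.527.

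Marker lists were read to describe which lineage genes these cells expressed, which does not check the identity of the line. Of 12 luminal markers 11 were retained, with summed FPKM of 1239 in EtOH and 969 in R5020, and all 11 were lower in R5020, as were 49.1% of all retained genes. Of the 11, 4 were lower by 1.5-fold or more, against 4.10% of the retained genes. These were *GATA3*, 253 to 126 (−0.998), *FOXA1*, 64.3 to 14.7 (−2.05), *ESR1*, 17.2 to 10.9 (−0.61), and *PGR*, the gene of PR itself, 23.7 to 15.3 (−0.60). The highest of the list besides *GATA3* were *MUC1*, 551 and 519.6 (−0.08), and *CDH1*, 102 and 99.2 (−0.04). The luminal keratins *KRT7* and *KRT19* were lower in the same library. The part of these markers in the keratin values was not tested, and in bulk RNA fewer cells of a type and less RNA per cell cannot be told apart.

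Of 12 basal or myoepithelial markers, 4 were retained, with summed FPKM of 23.6 in EtOH and 23.8 in R5020. *EGFR*, the EGF receptor gene, was past 1.5-fold, at 2.25 and 6.69 (1.24), and the highest were *ITGB4* at 10.8 and 9.07 (−0.23), *CDH3* at 7.92 and 5.98 (−0.35) and *EGFR*. *TP63*, the transcription factor gene that defines basal cells, was at 0.143 and 0.121, *MYH11* was listed at 0 in both libraries, and *CAV1* was at 0.010 in both. Mesenchymal markers summed to 12.5 and 9.65, with 3 of 9 retained, the highest being *COL1A1* at 5.12 and 3.31 (−0.51), *FN1* at 4.16 and 3.99 (−0.05) and *LUM* at 2.54 and 1.66 (−0.41). Epidermal markers summed to 6.65 and 6.15, with 2 of 8 retained, *KRT10* and *IVL*, the latter at 2.30 and 1.57 (−0.36). In this list *TGM1* was next, at 0.320 and 0.229 (−0.10). Like *KRT5*, at 0.0102 and 0.232, *TP63* and *KRT14* were below an FPKM of 1 in both libraries. The 4 retained genes of the basal list, *ITGB4*, *CDH3*, *EGFR* and *ACTA2* (1.93 and 1.35), were above it.

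**Figure D4:**
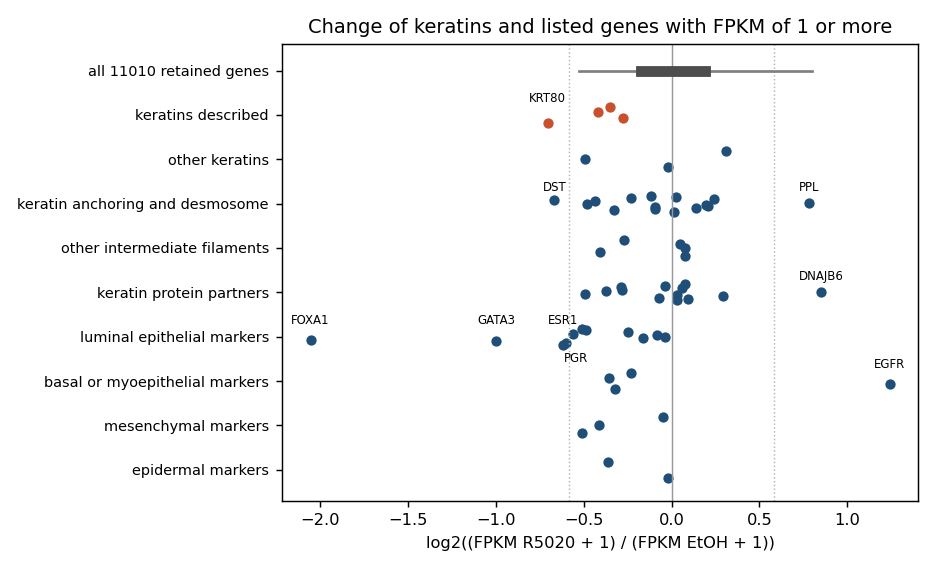
Log2 fold change, with a pseudocount of 1, of the retained genes of each list, 1 point per gene, with names for those past 1.5-fold (dotted lines) and, in the top row, the quartiles (thick bar) and the 5th to 95th percentiles (thin line) of all 11010 retained genes. The 4 retained keratins lie between −0.70 and −0.28, and all 11 luminal markers lie below 0.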

How the data were processed

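RNA-seq libraries of EtOH-treated and R5020-treated T47D cells and a PR ChIP-seq library, 1 of each, were analysed. The input library was not analysed here. The authors mapped 50-nt paired-end reads on hg19 by TopHat, kept those with a single position and deposited FPKM with an interval, a status and a coverage (a read depth per base signal) from Cufflinks for each of 41138 RefSeq transcripts. They aligned ChIP-seq reads with Bowtie 1.1.2 and deposited MACS sites with a score of 50 or more, called against input.

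FPKM was summed per gene symbol. The 9 genes whose every transcript carries a status of FAIL or HIDATA in a library were treated as missing there, among them *KRT8* and *KRT18*, although the sum of the 4 luminal keratins had been planned over all 4. The change used a pseudocount of 1, a filter of FPKM of at least 1 in at least 1 library and a threshold of 1.5-fold. Read equivalents are coverage times length over 50 nt. Sites were tied to genes within 50 kb of the extent of their transcripts and annotated with GENCODE release 44 on GRCh37. Bases were read from GRCh37, and 3 sites outside the assembled chromosomes were left out of the search for the element. The sequence of 1 site is not reported here. Depth limits the values below an FPKM of 1, and no interval for counting error was computed because fragment counts were not used. The distances and calls were tested on simulated data. How reliably a change near 1.5-fold is called in these libraries was not tested. With 1 library per condition no test was made. The members and lists were chosen with earlier results of these data known. The genes named are the 10 keratins, other keratins with an FPKM of at least 1, the genes past 1.5-fold and the 3 highest in EtOH of each list, and retained genes within 50 kb of the keratin sites. Other genes were named after their values were seen, *KRT1*, *KRT16*, *KRT86*, *VIM*, *TP63*, *MYH11*, *CAV1*, *ACTA2* and those of the closing section. *KRT6A*, *KRT6C* and *KRT71* were named because they lie closer than *KRT5* to some of its sites. Alternatives were a pseudocount of 0.1, other filters, a threshold of 2-fold, rescaling, the highest transcript, status OK only, other distances, stricter sites and smaller keratin sets, and, added later, no pseudocount, interval midpoints and failed estimates as 0. Python 3.11.15, pandas 2.3.3, numpy 2.4.6 and matplotlib 3.10.9 were used.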

Additional observations from a re-analysis of the deposited data

How the results depend on the processing

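Each of the 8 keratins with a value in both libraries kept its direction under every alternative that was run. Changing the pseudocount cannot reverse a direction, so this says little about the genes with few reads. For *KRT17* the FPKM rose from 0.0452 in EtOH to 0.0476 in R5020, while its coverage fell from 0.178 to 0.167 reads per base. With a gene's most abundant transcript used alone, and with a threshold of 2-fold, 0 of the 10 keratins passed, since *KRT80* was the only one past 1.5-fold. Counting the failed *KRT8* and *KRT18* estimates as 0 gave 3 keratins past the threshold and turned the log2 ratio of the luminal sum from −0.35 to 0.59, since a missing EtOH value is then read as no expression. The luminal to basal ratio in R5020 was then 363, because *KRT8* and *KRT18* enter the sum. From the interval midpoints the ratio of *KRT7* and *KRT19* to the basal sum was 85.7 in EtOH and 92.4 in R5020, in place of 180 and 190. Without *KRT7* and *KRT15* the log2 ratio of the basal sum was 2.22, carried by *KRT5*, and the luminal to basal ratio was 9576 in EtOH and 1609 in R5020. That ratio sets *KRT19* alone against *KRT5*, *KRT14* and *KRT17*. Their EtOH sum of 0.0635 rests on 1.17, 0.77 and 5.60 reads, so its size is not determined. Without the filter 1 of the other 44 keratins passed 1.5-fold (*KRT73*) in place of 0. At 2-fold 2 of the genes on the partner and marker lists passed in place of 8. No share over all genes was taken at these alternative settings, so the counts under them are not read as few or many. Without a pseudocount the log2 ratios of *KRT5*, *KRT81* and *KRT14* were 4.51, −1.75 and 1.05, on about 1 read in at least 1 library for *KRT5* and *KRT14*. Sites at or above the median score left 8 of 10 keratins with a site within 50 kb, and no share over all genes was taken at that setting. Depth limits every statement on the 4 keratins below an FPKM of 1. No replicate could be left out. No paired analysis was possible because each condition has 1 library and the labels carry no replicate numbers.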

Other observations

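*KRT73*, a type II keratin of the hair follicle sheath in the cluster on chromosome 12, was listed at 0 in EtOH with a status of OK and at an FPKM of 0.898 in R5020, a coverage of 3.84 reads per base or 176 reads of 50 nt. It stayed under the filter, and no fold is given against a listed 0. Its nearest PR binding site, of score 67.1, lay 48.1 kb away and is shared with *KRT5*. The gene was picked after its value was seen.

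The strongest PR binding site of the keratin clusters lay outside 50 kb of the 10 genes. It had a score of 515 (rank 49 of 11181, chr17:39577385-39577917) and lay inside *KRT37*, a hair keratin gene whose FPKM was 0.0234 in EtOH and listed at 0 in R5020. A pair of sites of score 141 and 109 lay 11.5 kb and 19.2 kb from *KRT23*, whose FPKM values were 24.1 and 16.8. These sites were likewise singled out after their values were seen.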
